A study of Mus musculus with 18 samples.

Results

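The autophagy machinery described here is a set of 38 genes for the proteins that build the autophagosome, load it with cargo and switch the pathway on. The members were given as a list of gene names, with no measured value in the rule, and were looked up by gene symbol. Earlier results of these data were known when the list was chosen. All 38 were found among the 12960 genes with deposited values. By role they are 5 genes of the initiation kinase complex, 6 of the class III phosphatidylinositol 3-kinase complexes, 5 for membrane supply and lipid transfer, 11 conjugation enzymes and proteases, 5 LC3 and GABARAP proteins, 4 cargo receptors and 2 transcription factors.

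Autophagy encloses cytoplasm in a growing double membrane and delivers it to the lysosome. The Ulk kinase complex starts the process, the Pik3c3 lipid kinase marks the membrane with a phosphatidylinositol lipid that Wipi proteins bind, and a chain of enzymes that resembles ubiquitin transfer attaches LC3 and GABARAP proteins to it. Cargo receptors such as Sqstm1 bind both the cargo and LC3, and Tfeb and Tfe3 activate genes of the pathway and of the lysosome. In mouse plasma cells, which secrete large amounts of antibody, autophagy is known to limit the endoplasmic reticulum and to sustain survival.

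The series compared B lineage cells of mouse spleen that lacked or kept G9a, a histone H3 lysine 9 methyltransferase encoded by Ehmt2, to learn which transcriptional programs it regulates during differentiation. KO mice carried G9afl/fl with 1 copy of a Cre recombinase allele active in B lineage cells, and Ctrl mice carried the same Cre allele, also in 1 copy, without the floxed gene. Naive B cells were enriched as CD43- cells from uninfected mice, whereas activated B cells (B220+GL7+) and plasma cells (CD138+ with intermediate or low B220) were sorted 72 h after intravenous injection of 50 µg lipopolysaccharide (LPS). Each of the 6 groups had 3 libraries made from 1000 cells, and the labels do not give the age or sex of the mice or say that replicates came from separate animals, so the spread behind the p-values may be technical.

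Values are RPKM, reads divided by transcript length and by the library's total, as the authors deposited them and then divided here by a scaling factor per library. Estimated depth was 1620000 to 4170000 reads in naive, 2670000 to 10900000 reads in activated and 5170000 to 6950000 reads in libraries of plasma cells. On the log2 scale the within-group SD of genes had a median of 0.39 in naive KO and 0.37 in naive Ctrl, against about 0.13 in each of the 4 groups from LPS-treated mice, and the limma fit therefore gave naive libraries a lower weight. The plasma cell KO library 4 stood apart by erythroid transcripts, with Hba-a2 at 18.5 RPKM against at most 0.758 RPKM in every other plasma cell library, and by the macrophage genes Vcam1 (13.1 RPKM, against at most 1.38 RPKM) and Csf1r (6.29 RPKM, against at most 0.881 RPKM). Ehmt2, the targeted gene, averaged 16.9 ± 5.35 RPKM in naive KO and 19.2 ± 7.25 RPKM in naive Ctrl cells (mean ± SD, n = 3, as throughout). It averaged 22.3 ± 0.810 RPKM in activated KO and 22.1 ± 3.12 RPKM in activated Ctrl cells, and 13.7 ± 1.27 RPKM in plasma cell KO and 17.1 ± 0.865 RPKM in plasma cell Ctrl. Those differences did not pass the test (limma, adjusted p of 0.97, 0.948 and 0.102), and since the values cover the whole gene they do not show the deleted exons and do not check the labels.

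Levels within the set differed widely, and since RPKM is per length the members can be ranked. Among activated Ctrl cells the highest were Gabarap at 151 ± 16.7 RPKM, Gabarapl2 at 138 ± 6.36 RPKM, Sqstm1 at 134 ± 2.75 RPKM and Map1lc3b at 102 ± 10.1 RPKM. In that order Gabarap overlapped Gabarapl2, and Gabarapl2 overlapped Sqstm1, whereas every Map1lc3b library was below every Sqstm1 library. These 4 genes encode membrane-bound tags and the main ubiquitin-binding receptor, and the genes that act before them were lower than these 4. The tags Map1lc3a (6.68 ± 1.34 RPKM) and Gabarapl1 (4.55 ± 0.344 RPKM) were themselves lower than conjugation genes such as Atg5 (29.6 ± 1.73 RPKM). Becn1, a scaffold of the lipid kinase, averaged 53.6 ± 2.70 RPKM and the initiating kinase Ulk1 2.78 ± 0.0929 RPKM. At the bottom were the protease Atg4c at 1.27 ± 0.203 RPKM and Wipi1, which binds the lipid mark, at 0.458 ± 0.243 RPKM.

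**Figure D1:**
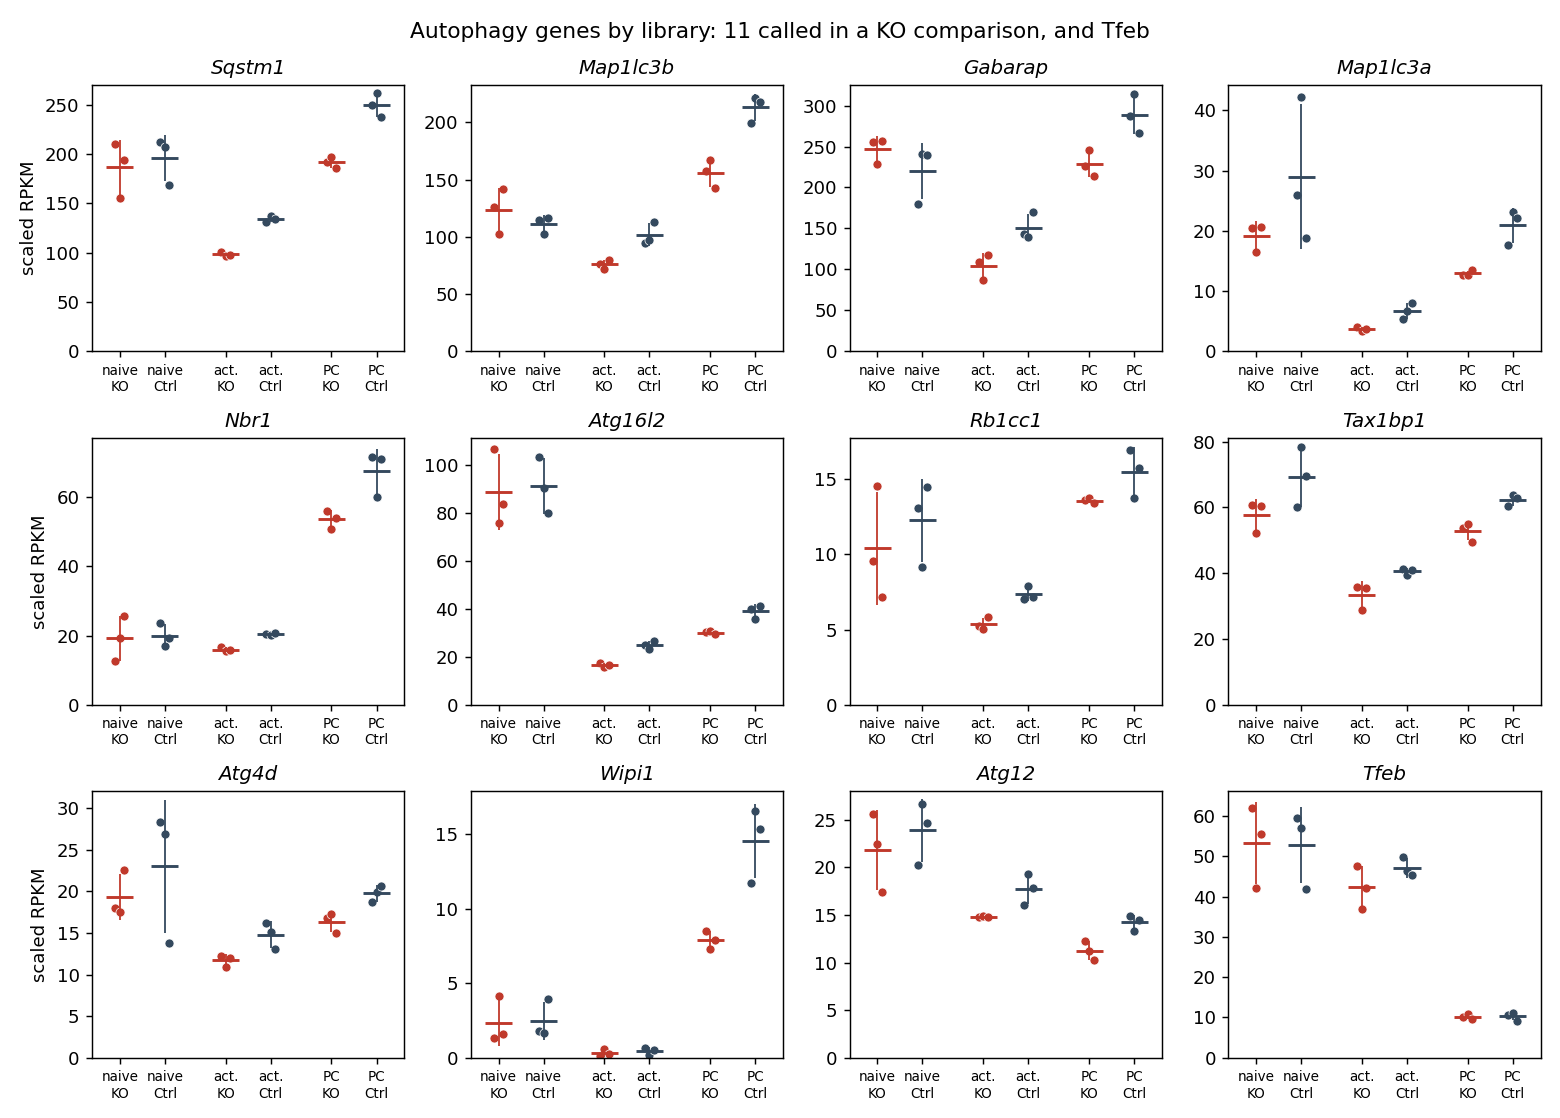
Scaled RPKM on a linear axis from 0, one panel for each of the 11 members called in a KO comparison and for Tfeb. Each point is 1 library, wide bars are group means and thin bars the SD (n = 3), with KO in red left of Ctrl in blue for naive B cells, activated B cells (act.) and plasma cells (PC). In the activated and plasma cell panels of Sqstm1, Map1lc3b, Gabarap, Map1lc3a, Nbr1 and Atg16l2, all KO points lie below all Ctrl points, and Tfeb is lower in plasma cells than in the other cell types in both genotypes.

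In activated B cells, most of the tags and cargo receptors of the pathway were lower in KO than in Ctrl. Of 38 members, 9 were called lower and 0 higher at an adjusted p under 0.05 in limma, where over all 12782 genes tested 8.1% were called lower and 6.69% higher. The 9 comprised 3 of 5 LC3 and GABARAP proteins (Gabarap, Map1lc3a, Map1lc3b), 3 of 4 cargo receptors (Sqstm1, Nbr1, Tax1bp1), the conjugation gene Atg16l2, the protease gene Atg4d and the scaffold gene Rb1cc1. No gene of the lipid kinase complexes, of membrane supply or of the 2 transcription factors was called. The median log2 change of the members was -0.16, beside -0.016 over all genes. With equal weights for all libraries 3 members were called (Atg16l2, Gabarap and Sqstm1), and 229 genes in place of 1890. In these pools of cells, fewer cells of a type and less RNA per cell cannot be told apart.

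Among the tags, Gabarap, which acts late in autophagosome formation, had 109, 87.4 and 117 RPKM in activated KO libraries, against 143, 139 and 170.1 RPKM in activated Ctrl. Every KO library was below every Ctrl library, and the log2 change was -0.53 (SE 0.10, adjusted p = 0.000728). Map1lc3b, which encodes the LC3B protein used as the standard marker of autophagosomes, had 76.4, 72.3 and 80.1 RPKM in KO and 94.6, 97.4 and 113 RPKM in Ctrl. The groups did not overlap, at a log2 change of -0.41 (SE 0.076, adjusted p = 0.00099). Its paralogue Map1lc3a was far less abundant, with 4.09, 3.42 and 3.66 RPKM in KO and 5.36, 6.66 and 8.04 RPKM in Ctrl, again without overlap (log2 change -0.69, SE 0.13, adjusted p = 0.000951). The other two genes of the family were not called. Gabarapl2 averaged 131 ± 12.2 RPKM in KO and 138 ± 6.36 RPKM in Ctrl, and Gabarapl1 3.91 ± 0.410 RPKM in KO and 4.55 ± 0.344 RPKM in Ctrl. How reads shared between these paralogues were assigned is not given in the sources used here.

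The receptor Sqstm1, known as p62, had 101, 96.9 and 97.4 RPKM in activated KO libraries, against 132, 137 and 134 RPKM in activated Ctrl. The 2 groups were tight and well apart, with a log2 change of -0.45 (SE 0.059, adjusted p = 2.66e-05). Nbr1, a relative of p62 that binds ubiquitin and LC3, had 16.6, 15.4 and 15.8 RPKM in KO and 20.5, 20.2 and 20.7 RPKM in Ctrl, without overlap (log2 change -0.34, adjusted p = 0.0118). Tax1bp1, another ubiquitin-binding receptor, had 35.9, 28.6 and 35.6 RPKM in KO and 41.3, 39.4 and 40.9 RPKM in Ctrl. KO library 3 was the lowest of these, the change was -0.28 (adjusted p = 0.018), and the call was lost without KO library 3, Ctrl library 1 or Ctrl library 4 (the log2 change ran from -0.33 to -0.18 over all alternatives). Optn, the remaining receptor, averaged 12.3 ± 1.06 RPKM in KO and 12.03 ± 1.29 RPKM in Ctrl, and its groups overlapped. In the annotation, 17.3% of the exon bases of Sqstm1 overlap those of Mrnip on the opposite strand. Mrnip, named after its values were seen, averaged 8.19 ± 0.248 RPKM in activated KO and 6.63 ± 0.669 RPKM in activated Ctrl and was not called.

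Atg16l2, a paralogue of the Atg16l1 scaffold that places LC3 on the membrane, had the smallest adjusted p of the set. It had 17.3, 15.9 and 16.4 RPKM in activated KO libraries and 25.02, 23.2 and 26.7 RPKM in activated Ctrl, a log2 change of -0.57 (SE 0.074, adjusted p = 2.41e-05). Atg16l1 itself averaged 4.25 ± 0.870 RPKM in KO and 4.91 ± 0.275 RPKM in Ctrl and was not called. Rb1cc1, which encodes the FIP200 scaffold of the initiation complex, had 5.24, 5.04 and 5.80 RPKM in KO and 7.04, 7.92 and 7.17 RPKM in Ctrl. Its groups did not overlap (log2 change -0.40, adjusted p = 0.0159), and the call was lost without KO library 1 or Ctrl library 3 (-0.46 to -0.35 over all alternatives). Atg4d, a protease that trims and recycles LC3 proteins, had 12.3, 10.9 and 11.99 RPKM in KO and 16.2, 15.1 and 13.1 RPKM in Ctrl. That call was marginal (log2 change -0.31, adjusted p = 0.0464) and was lost under 10 of 15 alternatives, including the removal of any KO library or of Ctrl library 1 or 3 (-0.39 to -0.25 over all alternatives). Exons of Atg4d overlap those of Kri1 on the opposite strand over 19% of their bases, and Kri1, also named after its values were seen, averaged 7.61 ± 1.84 RPKM in KO and 7.85 ± 0.577 RPKM in Ctrl.

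Other core enzymes were not called in activated B cells. Ulk1 averaged 2.62 ± 0.112 RPKM in KO and 2.78 ± 0.0929 RPKM in Ctrl, and Becn1 49.4 ± 1.27 RPKM in KO and 53.6 ± 2.70 RPKM in Ctrl. Atg5, which forms a conjugate with Atg12, averaged 30.6 ± 1.68 RPKM in KO and 29.6 ± 1.73 RPKM in Ctrl. Atg7, the E1-like enzyme that activates Atg12 and LC3, was the member with the highest log2 change, 0.32 (SE 0.12, adjusted p = 0.0732), at 11.5, 11.6 and 9.72 RPKM in KO and 8.46, 9.63 and 7.55 RPKM in Ctrl. Its KO libraries were all above its Ctrl libraries without passing the threshold. Tfeb averaged 42.3 ± 5.35 RPKM in KO and 47.1 ± 2.40 RPKM in Ctrl (adjusted p = 0.313). Wipi1 was at most 0.565 RPKM in KO and at most 0.663 RPKM in Ctrl, too low to compare. At an unadjusted p under 0.05, 15 of 38 members were counted, 14 lower and 1 higher. The share of all genes at an unadjusted p was not computed, here or in the comparisons below, so these counts have no background. The groups did not overlap in 18 of 38 members, where 31.3% of all genes had such a separation.

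**Figure D2:**
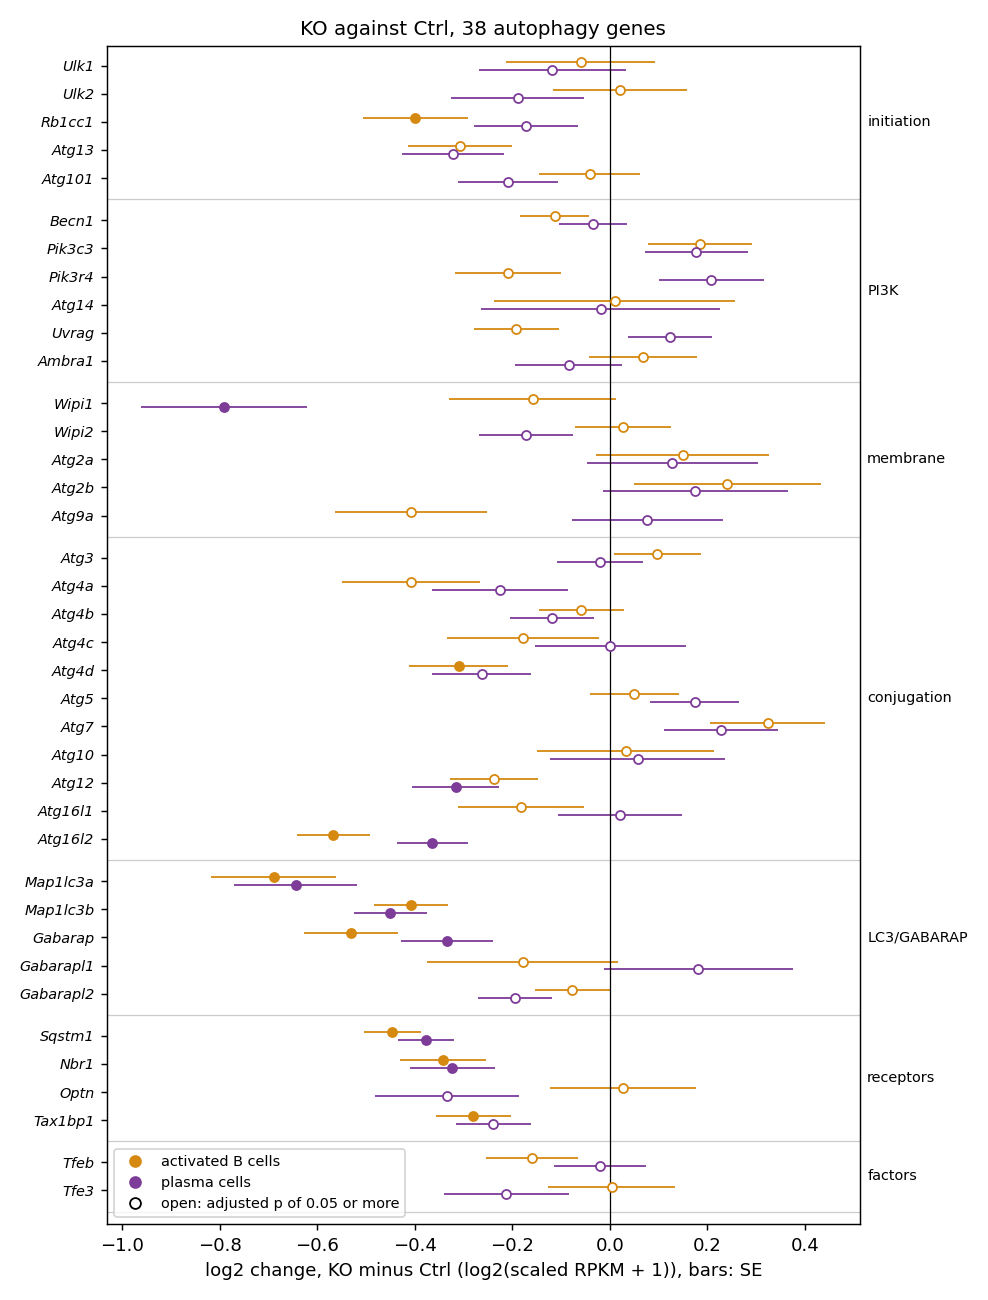
Log2 change between KO and Ctrl on the log2(scaled RPKM + 1) scale for the 38 members, ordered by role, in activated B cells (orange) and plasma cells (purple). Points are estimates of the limma fit and bars their SE; filled points have an adjusted p under 0.05. All filled points lie left of 0, and they cluster among the LC3 and GABARAP proteins and the cargo receptors.

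Plasma cells showed lower levels of largely the same tags and receptors in KO, together with Wipi1. Here 8 of 38 members were called lower and 0 higher, where 3.68% of all genes were called lower and 3.68% higher. The 8 were Sqstm1, Nbr1, Map1lc3a, Map1lc3b, Gabarap, Atg16l2, Atg12 and Wipi1. The median log2 change was -0.15, beside -0.0035 over all genes. The count was 5 without KO library 4, 5 without Ctrl library 1, and 5 with unscaled RPKM or with a pseudocount of 0.1. With equal weights 0 members were called (79 genes in place of 941), although 6 had an unadjusted p under 0.05, all lower.

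Sqstm1 had 192, 197 and 186 RPKM in plasma cell KO libraries, against 249, 262 and 238 RPKM in plasma cell Ctrl. All KO libraries were lower than all Ctrl libraries (log2 change -0.38, SE 0.058, adjusted p = 0.000307). Map1lc3b had 157, 167 and 143 RPKM in KO and 199, 222 and 218 RPKM in Ctrl, also without overlap (log2 change -0.45, SE 0.075, adjusted p = 0.000703). For Map1lc3a the values were 12.7, 12.7 and 13.5 RPKM in KO and 17.6, 23.1 and 22.1 RPKM in Ctrl (log2 change -0.64, SE 0.13, adjusted p = 0.00297). These 3 genes kept their calls under every alternative but equal weights. Atg16l2 did so as well, with 30.1, 30.8 and 29.3 RPKM in KO and 40.1, 35.9 and 41.1 RPKM in Ctrl (log2 change -0.36, SE 0.073, adjusted p = 0.0035).

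Wipi1 gave the largest log2 change of the set in the KO comparison of plasma cells. It had 8.48, 7.30 and 7.92 RPKM in plasma cell KO libraries and 11.7, 16.5 and 15.3 RPKM in plasma cell Ctrl, without overlap (log2 change -0.79, SE 0.17, adjusted p = 0.00586). The call was lost with a pseudocount of 0.1 and with equal weights. Its relative Wipi2, which recruits Atg16l1 to the membrane, averaged 29.2 ± 2.15 RPKM in KO and 33.04 ± 3.41 RPKM in Ctrl and was not called.

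Nbr1, Gabarap and Atg12 passed the threshold less securely. Nbr1 had 56.02, 50.9 and 53.99 RPKM in plasma cell KO and 71.6, 59.99 and 71.1 RPKM in plasma cell Ctrl (log2 change -0.32, adjusted p = 0.0273). Gabarap had 226, 246 and 215 RPKM in KO and 287, 314 and 266 RPKM in Ctrl (log2 change -0.33, adjusted p = 0.0361). Atg12, the ubiquitin-like protein joined to Atg5, had 12.3, 11.2 and 10.2 RPKM in KO and 14.8, 13.4 and 14.4 RPKM in Ctrl (log2 change -0.32, SE 0.089, adjusted p = 0.0348). In each of the 3 the groups did not overlap. The calls were lost under 9, 8 and 7 of 15 alternatives for Nbr1, Gabarap and Atg12 in that order, among them the removal of Ctrl library 1 or of KO library 4 in all 3. Over all alternatives the log2 change ran from -0.41 to -0.26 for Nbr1, from -0.39 to -0.24 for Gabarap and from -0.38 to -0.26 for Atg12.

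Several core enzymes did not pass in plasma cells. Ulk1 averaged 3.98 ± 0.472 RPKM in plasma cell KO and 4.40 ± 0.534 RPKM in plasma cell Ctrl, and Becn1 51.8 ± 0.994 RPKM in KO and 53.1 ± 2.25 RPKM in Ctrl. Atg5 averaged 70.8 ± 5.59 RPKM in KO and 62.6 ± 3.08 RPKM in Ctrl (adjusted p = 0.305), and Atg7 10.03 ± 1.00 RPKM in KO and 8.40 ± 0.508 RPKM in Ctrl (adjusted p = 0.295). Both were higher in every KO than in every Ctrl library. Atg16l1 averaged 4.45 ± 0.477 RPKM in KO and 4.36 ± 0.283 RPKM in Ctrl, and Tfeb 10.2 ± 0.661 RPKM in KO and 10.3 ± 1.06 RPKM in Ctrl. Closest to the threshold were Tax1bp1 (log2 change -0.24, adjusted p = 0.0637) and Atg13, the regulatory subunit of the Ulk complex (log2 change -0.32, adjusted p = 0.0692). At an unadjusted p under 0.05, 13 members were counted, all lower, again without a share of all genes to set beside them. Groups did not overlap in 16 of 38 members, beside 24.8% of all genes.

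Across the 2 cell types, 6 members were called lower in both, which is 66.7% of the activated and 75% of the plasma cell calls. The same overlap was not computed over all genes, so these shares do not show whether it is particular to the set. They were Sqstm1 (GRCm38 chr11:50199366-50210827, minus strand), Nbr1 (chr11:101552149-101581951, plus strand), Map1lc3a (chr2:155276297-155278073, plus strand), Map1lc3b (chr8:121590361-121598760, plus strand), Gabarap (chr11:69991143-69994951, plus strand) and Atg16l2 (chr7:101263034-101302251, minus strand), all protein-coding genes. In all, 11 members were called in at least 1 KO comparison and 27 in none, and the matching shares of all genes were not computed either. The activated and plasma cell comparisons use different libraries, but the labels do not say whether activated B cells and plasma cells with the same number came from the same mouse. No member's KO change differed between plasma and activated cells at an adjusted p under 0.05 in limma, where 2.38% of all genes did. At an unadjusted p under 0.05 there were 4 such members, 5 in a fit of only the libraries that enter the comparison, and 0 with equal weights. The 2 with the smallest adjusted p were Pik3r4, whose KO change was 0.21 in plasma cells and -0.21 in activated cells (adjusted p = 0.203 for the difference), and Wipi1, at -0.79 in plasma cells and -0.16 in activated cells (adjusted p = 0.222). Wipi1 was at most 0.663 RPKM in activated cells, a level at which the log2(RPKM + 1) scale shrinks a change.

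Expression of lineage markers moved with genotype as well. The 6 plasma cell markers, all present, summed to 334 to 432 RPKM in activated KO and 747 to 839 RPKM in activated Ctrl, and 4 of 6 were called lower. In plasma cells the sums were 7765 to 8720 RPKM in KO and 8426 to 9444 RPKM in Ctrl, with Xbp1 called lower. In naive cells these markers summed to 269.8 to 323 RPKM in KO and 256 to 294 RPKM in Ctrl, so their level set plasma cells apart from both other cell types, as labelled. The 8 B cell markers, all present, summed to 2614 to 2745 RPKM in activated KO and 3436 to 3892 RPKM in activated Ctrl, and to 993 to 1139 RPKM in plasma cell KO and 1340 to 1681 RPKM in plasma cell Ctrl. In activated KO 4 of 8 were called lower and 0 higher, whereas in plasma cell KO 1 was called lower, Cd79a, which carries much of the sum (433 ± 32.5 RPKM in KO and 768 ± 101 RPKM in Ctrl), and 2 higher, Cr2 (22.3 ± 1.68 RPKM in KO and 13.8 ± 0.915 RPKM in Ctrl) and Fcer2a. Erythroid markers, 3 of 8 present, summed to 34.8 to 44.4 RPKM in activated KO and 7.64 to 8.82 RPKM in activated Ctrl, and to 5.80 to 51.7 RPKM in plasma cell KO and 1.69 to 2.10 RPKM in plasma cell Ctrl. These sums rest largely on Car2 and Hbb-bs, and in plasma cell KO library 4 also on Hba-a2. Car2 was called higher in KO in both cell types and Hbb-bs in activated cells, while Hba-a2 was called in neither and was at most 0.230 RPKM in activated KO and 0.852 RPKM in activated Ctrl. T cell markers, 5 of 9 present, summed to 87.7 to 115 RPKM in activated KO and 119 to 150 RPKM in activated Ctrl, and to 24.3 to 30.3 RPKM in plasma cell KO and 19.9 to 27.8 RPKM in plasma cell Ctrl. Of the defining erythroid genes, Hba-a2 was at 0 in plasma cell KO library 3 and in plasma cell Ctrl library 1. Monocyte and macrophage markers, 6 of 10 present, summed to 26.7 to 54.3 RPKM in activated KO and 31.7 to 35.6 RPKM in activated Ctrl, and to 18.7 to 51.2 RPKM in plasma cell KO and 15.6 to 24.1 RPKM in plasma cell Ctrl. The T cell sum in activated cells is mostly Cd2, called lower in KO, while Lck was called higher there (10.9 ± 1.33 RPKM in KO and 6.73 ± 0.541 RPKM in Ctrl). In plasma cells Cd3e was called higher in KO, at 7.13, 8.69 and 10.1 RPKM in KO and at most 0.120 RPKM in Ctrl. No monocyte marker was called, and the highest plasma cell sum was that of KO library 4. Among activated libraries, KO library 3, the one of lowest estimated depth (2670000 reads), had the highest monocyte sum. It had Lyz2 at 26.1 RPKM, against at most 2.25 RPKM in the other activated libraries. The part of these shifts in the autophagy result was not tested.

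The start regions of the members called lower in both cell types are shown because these genes were lower in KO in both. RefSeq (GRCm38.p6) gave a start-site window of 250 bases before and 50 after for 32 of the 38 members, in 39 windows, and for 5 of these 6 genes, Map1lc3a having none. The 100 bases before each start site read 5′ to 3′ on the gene's strand as follows, with Nbr1 at both of its annotated starts and Atg3, an E2-like enzyme, added because it holds the E-box CACGTG, the core of the sequence that Tfeb and Tfe3 bind. Capitals mark that E-box. The start sites are those of RefSeq, whereas the gene coordinates above come from the GENCODE annotation, and the 2 can differ. By the GENCODE coordinates, the stretches of Gabarap and Atg16l2 and the first of Nbr1 lie inside the gene. Those of Sqstm1, Map1lc3b and Atg3 lie partly inside it.
Sqstm1, chr11:50210821-50210920, minus strand: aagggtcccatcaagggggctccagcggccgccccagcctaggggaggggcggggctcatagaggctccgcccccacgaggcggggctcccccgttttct
Map1lc3b, chr8:121590338-121590437, plus strand: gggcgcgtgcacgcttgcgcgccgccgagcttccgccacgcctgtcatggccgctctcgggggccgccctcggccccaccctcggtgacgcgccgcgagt
Gabarap, chr11:69991270-69991369, plus strand: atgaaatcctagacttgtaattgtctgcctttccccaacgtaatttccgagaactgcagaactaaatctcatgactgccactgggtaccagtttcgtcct
Nbr1, chr11:101552554-101552653, plus strand: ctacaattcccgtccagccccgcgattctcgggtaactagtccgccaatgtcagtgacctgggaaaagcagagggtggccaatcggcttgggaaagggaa
Nbr1, chr11:101552007-101552106, plus strand: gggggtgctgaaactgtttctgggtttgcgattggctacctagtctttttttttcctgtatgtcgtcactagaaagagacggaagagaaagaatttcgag
Atg16l2, chr7:101302089-101302188, minus strand: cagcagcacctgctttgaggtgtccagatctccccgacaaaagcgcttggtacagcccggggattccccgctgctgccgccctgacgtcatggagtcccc
Atg3, chr16:45158729-45158828, plus strand: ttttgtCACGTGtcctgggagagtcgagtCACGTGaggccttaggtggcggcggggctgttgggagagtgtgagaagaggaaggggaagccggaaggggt
The stretches differ in base composition. Map1lc3b is 79% GC with 18 CpG dinucleotides and Gabarap 44% GC with 3, where the median over the members' stretches is 65% GC and that over all genes' stretches 63%. CACGTG, searched on both strands, was found in the windows of 4 of 32 members (Atg3, Atg5, Atg7 and Atg14), or 12.5%, beside 11.5% of 10353 genes. The longer TCACGTG, which contains it, was in 3 members, or 9.38%, beside 6.85%. TGATGNAA, the pattern read by stress-induced ATF4 complexes, and TGACGTGG, a core read by Xbp1, were in 0 member windows, beside 3.07% and 1.1% of genes, which says only that these letters are not in these windows.

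Naive B cells gave no call in either direction. Of 38 members, 0 passed in limma and 0 had an unadjusted p under 0.05, with 0% of all genes called, and the fit of naive libraries alone also called 0 members with 2 at an unadjusted p under 0.05. With equal weights 1 member and 926 genes were called, and 9 members had an unadjusted p under 0.05, 4 higher and 5 lower. Sqstm1 averaged 187 ± 27.8 RPKM in naive KO and 196 ± 23.5 RPKM in naive Ctrl, Map1lc3b 123 ± 19.6 RPKM in KO and 111 ± 7.66 RPKM in Ctrl, and Gabarap 247 ± 15.7 RPKM in KO and 220.2 ± 34.7 RPKM in Ctrl. All 3 pairs of groups overlapped. The SE of the log2 change of Gabarap was 0.28 in naive cells and 0.10 in activated cells, and that of Sqstm1 was 0.17 in naive and 0.059 in activated cells. For the other genes followed in every comparison the naive estimates (log2 change with SE) were -0.082 (SE 0.44) for Ulk1, 0.19 (SE 0.20) for Becn1, 0.48 (SE 0.27) for Atg5 and -0.14 (SE 0.34) for Atg7. They were 0.13 (SE 0.37) for Atg16l1, 0.011 (SE 0.28) for Tfeb and -0.082 (SE 0.50) for Wipi1. The groups did not overlap in 3 members (Gabarapl2, Pik3c3 and Ulk2), beside 12.2% of all genes. A change of the size called in activated cells was therefore not detectable for Gabarap or Sqstm1 in naive cells at this spread. The KO change in activated cells was not shown to differ from that in naive cells for any member, where 0.0469% of all genes passed, although 4 members, all lower, had an unadjusted p under 0.05.

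Activation was accompanied by lower levels of the LC3 system and several receptors. In KO, 12 members were called lower and 1 higher in activated than in naive cells, where 26.7% of all genes were lower and 18.3% higher. In Ctrl, 11 were lower and 1 higher, where 33.1% were lower and 16.2% higher. The shares of lower members were thus near those of all genes. This step also changed LPS exposure and isolation method, which cannot be told apart from activation, and the count was 6 in each genotype with a replicate block. In Ctrl the median of all genes moved by -0.30 as scaled, -0.27 with unscaled RPKM and -0.053 with quantile normalization, and with unscaled RPKM the split was 2 higher to 8 lower. Activated libraries also held less erythroid and platelet RNA, at 7.64 to 44.4 RPKM over 3 erythroid and 1.67 to 4.77 RPKM over 4 platelet markers, against 282 to 503 and 46.5 to 115 RPKM in naive libraries, and the part of this in the step was not tested.

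Atg16l2 and Map1lc3a had the largest decreases on the log2(RPKM + 1) scale. Wipi1, at 0.307 ± 0.227 RPKM in activated KO and 2.35 ± 1.55 RPKM in naive KO, is low enough for that scale to shrink its change, which with a pseudocount of 0.1 was -2.56 in KO and -2.21 in Ctrl. Atg16l2 had 25.02, 23.2 and 26.7 RPKM in activated Ctrl and 103, 90.3 and 80.1 RPKM in naive Ctrl, a log2 change of -1.82 (SE 0.16, adjusted p = 4.16e-08), and in KO the change was -2.34 (adjusted p = 9.41e-10). Map1lc3a had 5.36, 6.66 and 8.04 RPKM in activated Ctrl and 26.01, 42.3 and 18.8 RPKM in naive Ctrl (log2 change -1.91, SE 0.28, adjusted p = 2.61e-05), and in KO it changed by -2.09 (adjusted p = 6.19e-06). Naive and activated libraries did not overlap for either gene. Called lower in both genotypes were 9 members, the others being Sqstm1, Tax1bp1, Gabarap, Rb1cc1, Wipi1, Atg4b and Atg4d, with Ctrl log2 changes of -0.53, -0.75, -0.54, -0.64, -1.20, -0.49 and -0.55 in that order. The share of all genes called lower in both genotypes was not computed. In Ctrl, single libraries ended the calls of Gabarap (naive 2 or 3, activated 1 or 3), Atg4b (naive 2 or 3, activated 3 or 4), Atg4d (naive 1 or 2, activated 3 or 4), Rb1cc1 (naive 1 or 3), Wipi1 (naive 3) and Ambra1 (naive 1), and in KO those of Atg12 and Atg4b (naive 1 or 2, activated 1 or 4, for Atg4b also 3), Atg4d (naive 1 or 3), Rb1cc1 and Wipi1 (naive 2). Without naive Ctrl library 3 the Ctrl change of Wipi1 was -0.92, and without naive KO library 2 its KO change was -0.92. Map1lc3b (log2 change -0.68), Atg101 (-1.0) and Atg12 (-0.51) were called lower in KO but not in Ctrl (-0.13, -0.35 and -0.40). Ulk2 (-1.29), a kinase related to Ulk1, and Ambra1 (-0.89), a Becn1 partner, were called lower in Ctrl but not in KO (-0.67 and -0.46). The test of the difference between the genotypes' steps is that of the KO change in activated minus naive cells, in which no member passed.

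Optn, a receptor for mitochondria and bacteria, was the exception. It had 12.2, 13.2 and 10.7 RPKM in activated Ctrl libraries and 5.04, 7.53 and 0.991 RPKM in naive Ctrl. The naive values spread widely but all lay below the activated ones (log2 change 1.47, SE 0.32, adjusted p = 0.00123), and in KO the change was 1.27 (adjusted p = 0.00391).

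**Figure D3:**
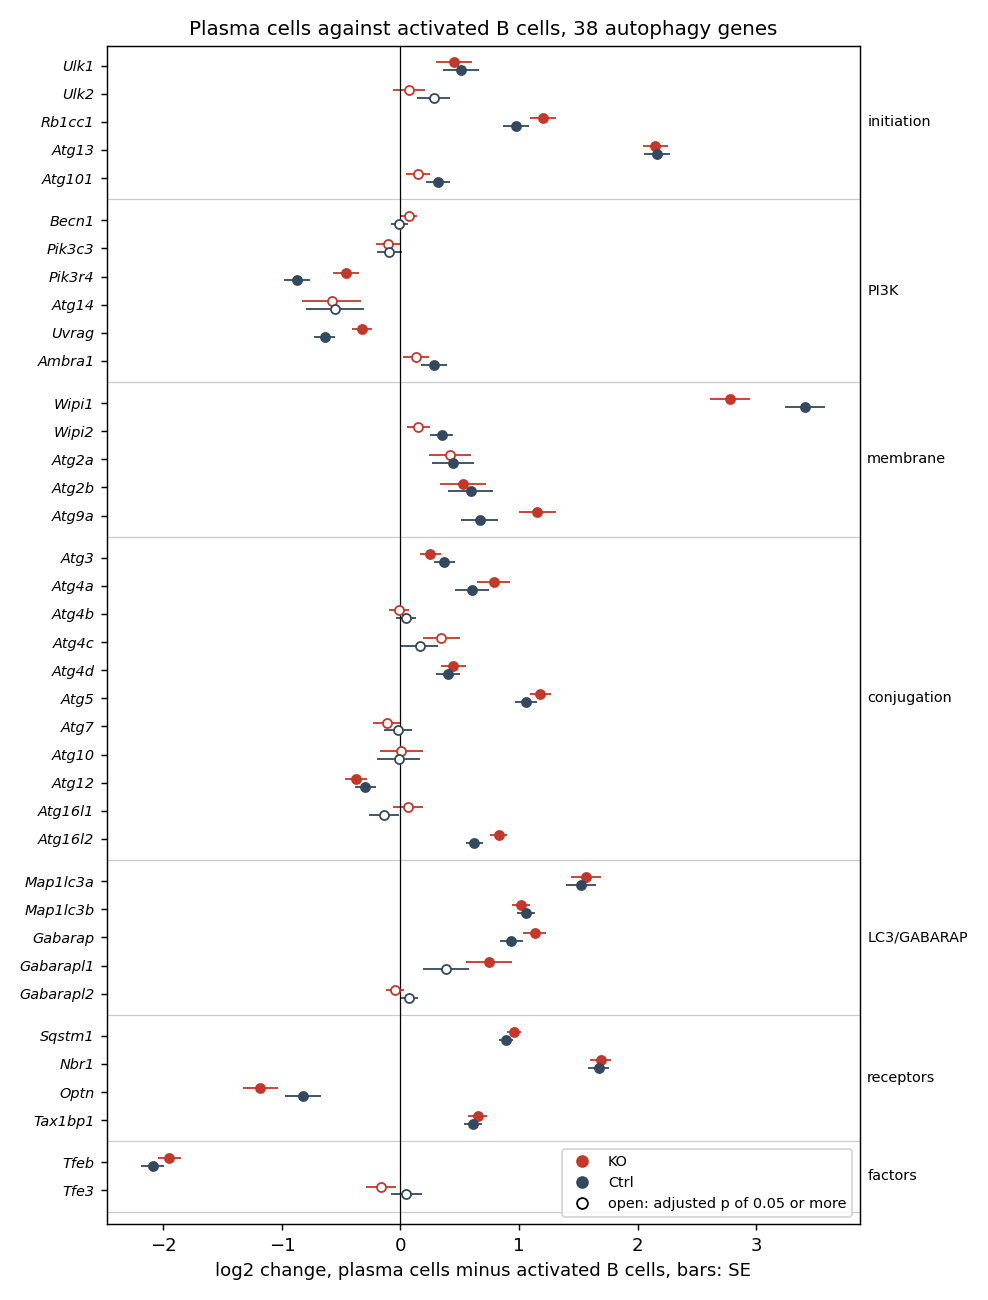
Log2 change between plasma cells and activated B cells on the log2(scaled RPKM + 1) scale for the 38 members, ordered by role, in KO (red) and Ctrl (blue). Points are limma estimates, bars their SE, and filled points have an adjusted p under 0.05. Wipi1 and Atg13 lie farthest right and Tfeb farthest left in both genotypes.

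Between activated B cells and plasma cells, both from LPS-treated mice, far more members were higher in plasma cells than lower. In KO, 18 of 38 members were called higher and 5 lower, where 24.7% of all genes were higher and 28.6% lower. In Ctrl, 21 were higher and 5 lower, where 24.9% were higher and 27.5% lower. The median log2 change of the members was 0.30 in KO and 0.36 in Ctrl, beside -0.019 and -0.025 over all genes. With unscaled RPKM the split was 15 higher to 9 lower in KO and 13 higher to 9 lower in Ctrl. Over all 12960 genes before the filter, the median was then -0.10 in KO and -0.13 in Ctrl, against -0.016 and -0.024 as scaled. With equal weights 15 members were called in KO and 14 in Ctrl. Called in both genotypes were 17 members higher and 5 lower, an overlap that was not computed over all genes. The change between genotypes of this step is the same contrast as the difference of KO changes given above, in which no member passed. These plasma cell comparisons share the activated and plasma cell libraries with the KO comparisons above.

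Wipi1 was close to absent in activated cells and present in plasma cells. It had 11.7, 16.5 and 15.3 RPKM in plasma cell Ctrl and 0.663, 0.189 and 0.522 RPKM in activated Ctrl (log2 change 3.41, SE 0.17, adjusted p = 3.09e-13), and in KO it changed by 2.78 (adjusted p = 9.16e-12). Atg13 had 57.8, 64.2 and 59.7 RPKM in plasma cell Ctrl and 11.7, 14.3 and 12.3 RPKM in activated Ctrl (log2 change 2.16, SE 0.11, adjusted p = 2.23e-13), and 2.15 in KO. Among its partners, Rb1cc1 was called higher in both genotypes (0.97 in Ctrl), Ulk1 likewise (0.51), Atg101 in Ctrl alone (0.31) and Ulk2 in neither (0.28). In Ctrl plasma cells 4 of 5 initiation genes were thus called higher.

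Most tags and receptors were higher in plasma cells too. Nbr1 had 71.6, 59.99 and 71.1 RPKM in plasma cell Ctrl and 20.5, 20.2 and 20.7 RPKM in activated Ctrl (log2 change 1.67, SE 0.088, adjusted p = 7.45e-13). With per-library values given above, the Ctrl log2 change was 1.06 for Map1lc3b (SE 0.076, adjusted p = 1.17e-10) and 0.89 for Sqstm1 (SE 0.058, adjusted p = 2.94e-11), both higher in every plasma cell library than in any activated one. Map1lc3a (1.52), Gabarap (0.94) and Tax1bp1 (0.61) were also called higher. All 6 were called in KO as well, with log2 changes of 1.69, 1.02, 0.96, 1.56, 1.13 and 0.65 in the same order. Gabarapl2 was not called in either genotype, and Gabarapl1 was called in KO (0.75) but not in Ctrl (0.39, adjusted p = 0.108).

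Conjugation genes were mixed. Atg5 had 64.5, 64.1 and 59.01 RPKM in plasma cell Ctrl and 30.9, 30.2 and 27.6 RPKM in activated Ctrl (log2 change 1.06, SE 0.091, adjusted p = 2.48e-09), and in KO it changed by 1.18. Its conjugation partner Atg12 went the other way, with 14.8, 13.4 and 14.4 RPKM in plasma cell Ctrl and 16.1, 19.3 and 17.8 RPKM in activated Ctrl (log2 change -0.30, adjusted p = 0.00797). Atg16l2 (0.62), Atg4a (0.60), Atg4d (0.40) and Atg3 (0.37) were called higher in both genotypes. Atg7, Atg10, Atg16l1, Atg4b and Atg4c were called in neither. For membrane supply, the scramblase gene Atg9a (0.67) and the lipid transfer gene Atg2b (0.59) were called higher in both genotypes, and Atg2a (0.44) and Wipi2 (0.35) in Ctrl. About 31.8% of the exon bases of Atg9a overlap a transcript on the same strand, Gm29253, so its reads may be shared. Leaving out one library (any but activated Ctrl 4 and plasma cell Ctrl 3) ended 1 or more of the calls of Atg2a, Atg2b, Atg101 and Ambra1 in Ctrl, whose log2 changes over all alternatives ran from 0.23 to 0.71, 0.38 to 0.87, 0.10 to 0.37 and 0.087 to 0.35. In KO the same held for Atg2b, Atg3 and Ulk1 (any activated or plasma cell KO library but activated KO 3), at 0.39 to 0.63, 0.092 to 0.35 and 0.33 to 0.58.

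Besides Atg12, 4 members were lower in plasma cells in both genotypes. Tfeb, which drives autophagy and lysosome genes when it enters the nucleus, had 10.6, 11.2 and 9.16 RPKM in plasma cell Ctrl and 49.9, 46.3 and 45.3 RPKM in activated Ctrl. No library came near the other group (log2 change -2.09, SE 0.095, adjusted p = 6.43e-14), and in KO the change was -1.95. Its relative Tfe3 averaged 10.9 ± 1.54 RPKM in plasma cell Ctrl and 10.4 ± 0.107 RPKM in activated Ctrl and was not called. In the lipid kinase complexes Pik3r4, the regulatory subunit, changed by -0.88 in Ctrl (SE 0.11, adjusted p = 5.74e-07) and Uvrag, which directs the complex to late steps, by -0.64 (SE 0.087, adjusted p = 2.14e-06). In KO those changes were -0.46 and -0.32. Ambra1 was called higher in Ctrl alone (0.28, adjusted p = 0.0372), and Becn1, Pik3c3 and Atg14 were called in neither genotype. Optn had 6.55, 6.72 and 5.79 RPKM in plasma cell Ctrl, below its 12.2, 13.2 and 10.7 RPKM in activated Ctrl (log2 change -0.82, adjusted p = 7.25e-05), and in KO it changed by -1.18.

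Set against naive cells, plasma cells of Ctrl mice had 7 members higher and 8 lower, where 22.1% of all genes were higher and 40.2% lower. The median log2 change was -0.048 for the members and -0.37 for all genes tested. Over all 12960 genes before the filter, the median was -0.39 as scaled, -0.52 with unscaled RPKM and -0.056 with quantile normalization. Wipi1 (2.21), Atg13 (1.92), Nbr1 (1.72), Atg5 (1.53), Map1lc3b (0.93), Atg4a (0.90) and Sqstm1 (0.36) were higher. Sqstm1 lost its call with unscaled RPKM, with a replicate block and without naive Ctrl library 3, and turned to -0.12 with quantile normalization. Tfeb (-2.23), Atg16l2 (-1.20), Uvrag (-1.08), Pik3r4 (-1.05), Ulk2 (-1.01), Atg12 (-0.70), Ambra1 (-0.61) and Atg4b (-0.44) were lower. Single libraries also ended the calls of Ambra1 (naive 1 or 3, plasma cell 3), Atg4a (naive 3), Atg4b (naive 2 or 3, plasma cell 1 or 3) and Ulk2 (naive 1), all 4 of which also missed the threshold with a replicate block, as did Pik3r4 (adjusted p = 0.0562) and Atg12 (adjusted p = 0.0859). For Ambra1, Atg4a, Atg4b and Ulk2 the log2 changes over all alternatives ran from -0.83 to -0.44, 0.58 to 1.38, -0.64 to -0.29 and -1.20 to -0.79. Atg16l2 was thus highest in naive, lowest in activated and intermediate in plasma cells, whereas Tfeb was similar in naive and activated cells and lower in plasma cells. Of the 38 members, 10 were called in neither Ctrl step, and the matching share of all genes was not computed.

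Genes next to the set in the pathway were read the same way, from lists drawn up outside the members with earlier results of these data known. They are set beside the same shares of all genes (8.1% lower and 6.69% higher in activated KO, 3.68% each way in plasma cell KO). Of 29 further autophagy genes, 0 were called higher and 5 lower in activated KO, led by Trp53inp1, an LC3-binding protein, at 9.79 ± 0.639 RPKM in KO and 17.96 ± 0.814 RPKM in Ctrl (log2 change -0.81, adjusted p = 2.48e-07), Trp53inp2 (-0.44) and the tethering subunit Vps11 (-0.37). In plasma cell KO, 2 were lower, Trp53inp1 (-0.41) and the fusion protein gene Vamp8 (-0.31), and 1 higher, Rubcnl (0.34). Among 18 organelle receptors, 4 were lower in activated KO, with Ccpg1, a receptor for endoplasmic reticulum (-0.70), the mitophagy kinase gene Pink1 (-0.82) and Calcoco1 (-0.81) first by adjusted p, and 2 higher, the mitophagy receptor genes Bnip3 (0.69) and Phb2 (0.35). In plasma cell KO, Ccpg1 (-0.40) and Pink1 (-0.41) were lower and none was higher.

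Of 25 lysosomal protein genes, 15 were lower and 0 higher in activated KO (median log2 change -0.36), where 8.1% of all genes were lower, and 7 were lower and 0 higher in plasma cell KO (median -0.17), where 3.68% were lower. In activated cells they were led by the cathepsin genes Ctsa, at 27.8 ± 3.39 RPKM in KO and 50.1 ± 1.74 RPKM in Ctrl (log2 change -0.83, adjusted p = 2.95e-07), Ctsb (-0.59) and Ctsd (-0.65). In plasma cells the genes called lower included Ppt1, a thioesterase (-0.51), and Ctsa (-0.46). Of 16 subunits of the vacuolar ATPase, which acidifies the lysosome, 8 were lower and 0 higher in activated KO, led by Atp6ap1 (-0.58), Atp6v0d1 (-0.41) and Atp6v0b (-0.33), and 3 were lower and 1 higher in plasma cell KO (Atp6v1b2 at 0.35, Atp6ap1 at -0.24 and Atp6v0d1 at -0.25).

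Among nutrient sensors that control the Ulk complex, calls were near or below the share over all genes. Of 35 mTORC1 and AMPK genes, 3 were lower in activated KO (8.1% of all genes were), Sesn1 (-0.54), Flcn (-0.31) and Sesn2 (-0.54), and 1 was higher, Rragb (0.59), where 6.69% of all genes were. In plasma cell KO, Lamtor2 was lower (-0.30) and Prkab2, listed at 0.811 ± 0.248 RPKM in KO and 0.214 ± 0.127 RPKM in Ctrl, was higher, 1 of 35 each way, where 3.68% of all genes were lower and 3.68% higher. Among 4 other MiT and FOXO factors, Foxo1, which activates autophagy genes when nuclear, was lower in activated KO at 22.5 ± 1.63 RPKM, against 35.5 ± 2.70 RPKM in activated Ctrl (log2 change -0.63, adjusted p = 1.51e-05), and none was called in plasma cells. In naive KO, 0 genes of these lists were called.

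**Figure D4:**
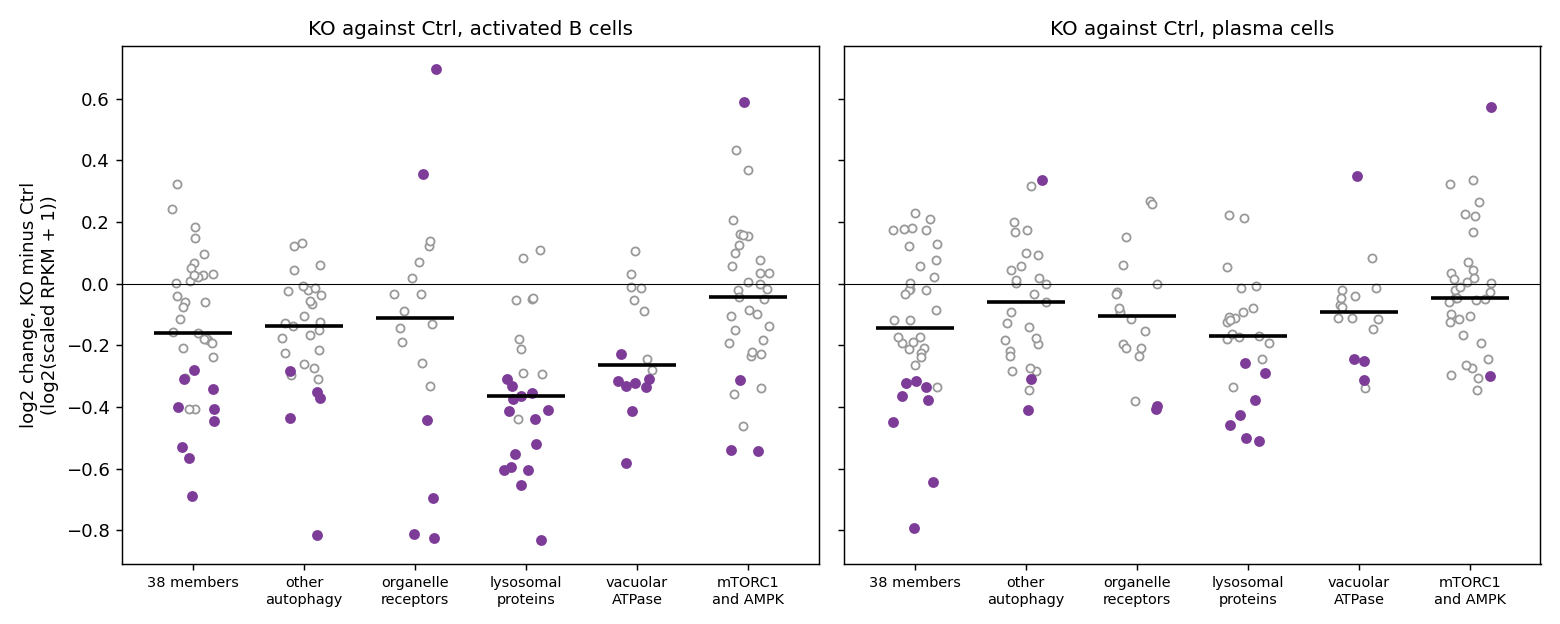
Log2 change between KO and Ctrl on the log2(scaled RPKM + 1) scale in activated B cells (left) and plasma cells (right) for the 38 members and 5 related lists. Each point is 1 gene, filled where its adjusted p is under 0.05, and the horizontal bar is the median of the list. Lysosomal proteins have the lowest median in both panels, -0.36 and -0.17, and the mTORC1 and AMPK genes the median nearest 0 in both.

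In Ctrl plasma cells against activated B cells, further autophagy genes were called higher in 13 and lower in 8 of 29 cases, where 24.9% of all genes were higher and 27.5% lower. Trp53inp1 averaged 282 ± 12.4 RPKM in plasma cells and 17.96 ± 0.814 RPKM in activated cells (log2 change 3.90), and Trp53inp2 changed by 1.65. Rubcn, the Rubicon protein that restrains autophagosome maturation, went the other way with 3.83 ± 0.449 RPKM in plasma cells and 37.7 ± 5.43 RPKM in activated cells (log2 change -3.00, adjusted p = 2.43e-15). Organelle receptors were higher in 11 and lower in 2 of 18, led by Ccpg1 (2.91), Pink1 (1.69) and Sec62 (1.62). Lysosomal genes were higher in 15 and lower in 5 of 25, with Gusb (2.17) and Ctsb (1.73) among those higher. Vacuolar ATPase subunits were higher in 11 and lower in 1 of 16, led by Atp6v0a1 (2.12), Atp6v0c (1.38) and Atp6v0a2 (1.43). Of 35 mTORC1 and AMPK genes, 12 were higher and 11 lower, with Lamtor2 (0.95), Rheb (0.86) and Sesn1 (-1.24) first by adjusted p, and of the 4 other factors Foxo1 was lower (-0.65) and Foxo3 higher (0.87).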

How the data were processed

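RNA of 18 libraries (6 groups of 3) from mouse spleen was deposited as RPKM per gene in 1 table. Per the submitters' processing notes, reads were aligned with STAR to mm10; their versions, the counting step and its use of strand are not stated in any source used. The authors' RPKM values are not counts, so no count test was run. Estimated depth rests on low values of 2891 genes, of which 40% to 63.5% per library lay within 0.1 of a whole read, too few to recover counts.

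Here RPKM was divided by median-of-ratios factors (0.911 to 1.08, over 8012 genes). Genes with a mean of at least 1 RPKM in 1 group or more were kept (12782 of 12960, all 38 members). Values entered limma 3.58.1 (R 4.3.3) as log2(RPKM + 1), which understates changes of low genes, with group means and a weight per cell type (naive 0.241, activated 2.02, plasma cells 2.06). The p-values were adjusted by Benjamini-Hochberg over all genes kept in each of 10 comparisons, with a call at an adjusted p under 0.05. The code was tested on simulated data. Scaling used pandas 2.3.3 and numpy 2.4.6 under Python 3.11.15, and plots used matplotlib 3.10.9.

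The members and lists were chosen with earlier results of these data known, as were the weights, since naive libraries had shown the larger spread. Every called member is named, and the SE and adjusted p are given for only some of them. In KO comparisons Ulk1, Becn1, Atg5, Atg7, Atg16l1, Map1lc3b, Gabarap, Sqstm1, Tfeb and Wipi1 are given whatever their p, and up to 3 called genes of other lists, of which some are not reported here. Alternatives were unscaled RPKM, quantile normalization, another pseudocount, no filter or a stricter one, other weights, a fit of each comparison's own libraries, a replicate block and leaving out each library.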

Additional observations from a re-analysis of the deposited data

Results flagged for a closer look

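No member of the autophagy set was among the results picked out by the test of the difference between the KO change in plasma cells and that in activated B cells. In limma, with p-values adjusted over 12782 genes, 7 genes of the neighbouring lists passed it, where 2.38% of all genes did. By list, 2 of 29 further autophagy genes, 1 of 18 organelle receptors and 2 of 25 lysosomal genes passed. Of 35 mTORC1 and AMPK genes 1 passed, of 4 other factors 1 and of 16 vacuolar ATPase subunits 0. Over all genes, 304 passed, but 20 with equal weights and 175 without plasma cell Ctrl library 1.
Bnip3, a mitophagy receptor gene, had a KO change of -0.20 in plasma cells and 0.69 in activated B cells, a difference of -0.89 on the log2 scale (adjusted p = 0.04).
Prkab2, a regulatory subunit of AMPK, had 0.57 in plasma cells and -0.34 in activated B cells, a difference of 0.91 (adjusted p = 0.0212). Its plasma cell levels were near the floor, at 1.09, 0.71 and 0.629 RPKM in KO and 0.241, 0.076 and 0.326 RPKM in Ctrl.
The lysosomal enzyme genes Hexa and Ctsb had 0.21 and -0.17 in plasma cells against -0.36 and -0.59 in activated B cells, differences of 0.58 (adjusted p = 0.00539) and 0.42 (adjusted p = 0.0212).
Foxo1 had -0.12 in plasma cells and -0.63 in activated B cells, a difference of 0.51 (adjusted p = 0.015).
Rubcnl had 0.34 in plasma cells and -0.14 in activated B cells, a difference of 0.47 (adjusted p = 0.0303).
Trp53inp1 had -0.41 in plasma cells and -0.81 in activated B cells, a difference of 0.41 (adjusted p = 0.04), so it was lower in KO in both cell types, less so in plasma cells.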

How the results depend on the processing

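The fit weighted libraries by cell type, and this choice mattered most. With equal weights, members called numbered 1 in naive, 3 in activated and 0 in plasma cell KO comparisons (0, 9 and 8 with cell type weights), 15 in KO and 14 in Ctrl for plasma against activated cells, and 1 for the KO change in activated minus naive cells. Genes called were then 926, 229 and 79 in the KO comparisons (0, 1890 and 941 with cell type weights), 4233 in KO and 4198 in Ctrl for plasma against activated cells (6820 and 6698), and 336 and 20 for the differences of KO changes, activated minus naive and plasma minus activated (6 and 304). In the plasma cell KO comparison, unscaled RPKM and a pseudocount of 0.1 each called 5 members, and a weight per library called 1640 genes. Leaving out each library in turn called 0 to 0 members for KO in naive, 7 to 9 in activated and 5 to 7 in plasma cells, 9 to 14 (KO) and 9 to 11 (Ctrl) for activated against naive, 20 to 23 (KO) and 22 to 27 (Ctrl) for plasma against activated, 11 to 16 for plasma against naive, and 0 for either difference of KO changes. Genes called fell to 1190 without activated Ctrl 4, and to 463 without plasma cell KO 1 and 591 without plasma cell Ctrl 1.

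The deviations of same-numbered libraries had r of -0.21 to 0.31, and no comparison had every such r over 0.1, so the samples were not treated as paired. In plasma cell KO and Ctrl the same-number r were 0.068, 0.195 and 0.312 and the others -0.283 to 0.094, a hint from the data and not from the design. With a replicate block 9 members were called in activated and 9 in plasma cell KO comparisons, and 6 in KO and 6 in Ctrl for activated against naive cells, where genes called were 2932 and 3149 in place of 5746 and 6310. For plasma against naive cells the block called 5275 genes in place of 7959. In Ctrl, activated against naive called 3961 genes with quantile normalization and 4112 with a filter at 5 RPKM. The KO difference activated minus naive called 3 genes with quantile normalization, 16 with a pseudocount of 0.1, 24 with its own libraries, 2 with the block and 1 to 21 without single libraries. The difference plasma minus activated called 200 with a pseudocount of 0.1, 638 with a weight per library, 198 without activated Ctrl 4 and 175 without plasma cell Ctrl 1.

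Directions turned mostly for uncalled values near 0. In naive cells these were Tfeb (-0.042), Ulk1 (0.28) and Wipi1 (0.33) with quantile normalization, and, leaving out single libraries, ranges that crossed 0 for Tfeb (-0.14 to 0.17), Ulk1 (-0.47 to 0.44), Wipi1 (-0.44 to 0.20), Sqstm1 (-0.18 to 0.050), Atg7 (-0.45 to 0.033) and Becn1 (-0.035 to 0.35). In plasma cells they were Becn1 (0.019) and Tfeb (0.030) with unscaled RPKM, Atg16l1 (-0.029) and Becn1 (0.0094) with quantile normalization, and ranges of -0.021 to 0.096 for Atg16l1 and -0.096 to 0.038 for Tfeb. The called value that turned was Sqstm1 in plasma against naive cells (-0.12 with quantile normalization). Of 1637 alternative values of the 106 called changes, 1455 stayed called in the same direction, 181 missed the threshold and 1 turned; the causes were not tested. Depth could be estimated only roughly, and naive libraries limit every comparison that uses them.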
